A study of Homo sapiens with 12 samples.

Results

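The 8 genes described here make, activate or receive prostaglandins: PLA2G4A, PTGS1, PTGS2, PTGES, PTGES2, PTGES3, PTGER2 and PTGER4. They were chosen by symbol, with earlier results of these data known, from the 16633 genes measured in HT1080 cells, a human fibrosarcoma cell line. Wild-type HT1080 cells were moved 3 days after seeding to biotin-depleted medium with 1% serum. One experiment gave 40 nM PMA (phorbol 12-myristate 13-acetate), an activator of protein kinase C, for 24 h, and the other gave 40 µg/mL concanavalin A (ConA), a plant lectin that binds mannose-rich glycans, for 24 h. Each experiment had 3 treated and 3 control libraries of its own, 12 libraries in all, and what the control cells received in place of the agent is not given in the sources used here. All 8 genes were listed in the PMA experiment, and 7 were listed in the ConA experiment, where PTGER2 was not listed.

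Prostaglandin synthesis starts when cytosolic phospholipase A2 (PLA2G4A) frees arachidonic acid from membrane lipids. The cyclooxygenases PTGS1 (COX-1, usually constitutive) and PTGS2 (COX-2, usually inducible) convert it to prostaglandin H, which the synthases PTGES, PTGES2 and PTGES3 turn into prostaglandin E. Prostaglandin E then acts on the membrane receptors PTGER2 and PTGER4, both of which raise cAMP in the receiving cell. In fibroblasts and tumour cells PTGS2 and PTGES are known as genes that inflammatory and growth signals switch on together.

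Levels are normalized counts, which are estimated reads per gene divided by 1 factor per library and not by gene length. About 33635937 to 45592979 estimated reads were counted per library. Replicate libraries differed by more than sampling noise, with a squared difference of 3.63 to 17.4 times the sampling variance, so changes were judged against the spread between libraries. All 8 markers of mesenchymal cells were listed in the PMA experiment, where their summed level was 532338 to 553789 in the controls and 595117 to 623459 with PMA. For ConA 7 of 8 were listed, with sums of 618555 to 696984 in the controls and 449692 to 486854 with ConA, and THY1 was not listed. To be called, a gene had to differ by 1 or more on the log2 scale in either direction and have an adjusted p no higher than 0.0001, from limma on log2(normalized count + 1), with the standard error written SE. Nothing in the labels says that the libraries of a group came from separate cultures, so the p-values measure the spread between these libraries, which may be technical. An exact permutation test of 3 against 3 libraries cannot give a p under 0.1 and was not used.

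With PMA, 4 of the 8 genes passed both thresholds: PTGS2, PTGS1 and PLA2G4A rose, and PTGES fell. Over all genes tested with PMA the share called was 8.65%, made up of 4.03% that rose and 4.61% that fell. With ConA, 1 of the 7 genes passed, which was PTGER4 with a higher level, where the share over all genes was 8.71%, and 5.83% for rises alone. The treated libraries were clear of the controls for 6 of 8 genes with PMA and for 5 of 7 with ConA, against 67.9% and 69.3% of all genes tested, so non-overlap by itself did not set these genes apart. At an adjusted p no higher than 0.05 with no limit on the fold, 6 of 8 genes passed with PMA and 5 of 7 with ConA, against 63.3% and 65.3% of all genes tested. The median log2 fold change over all genes was 0.0029 with PMA and -0.0022 with ConA.

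**Figure D1:**
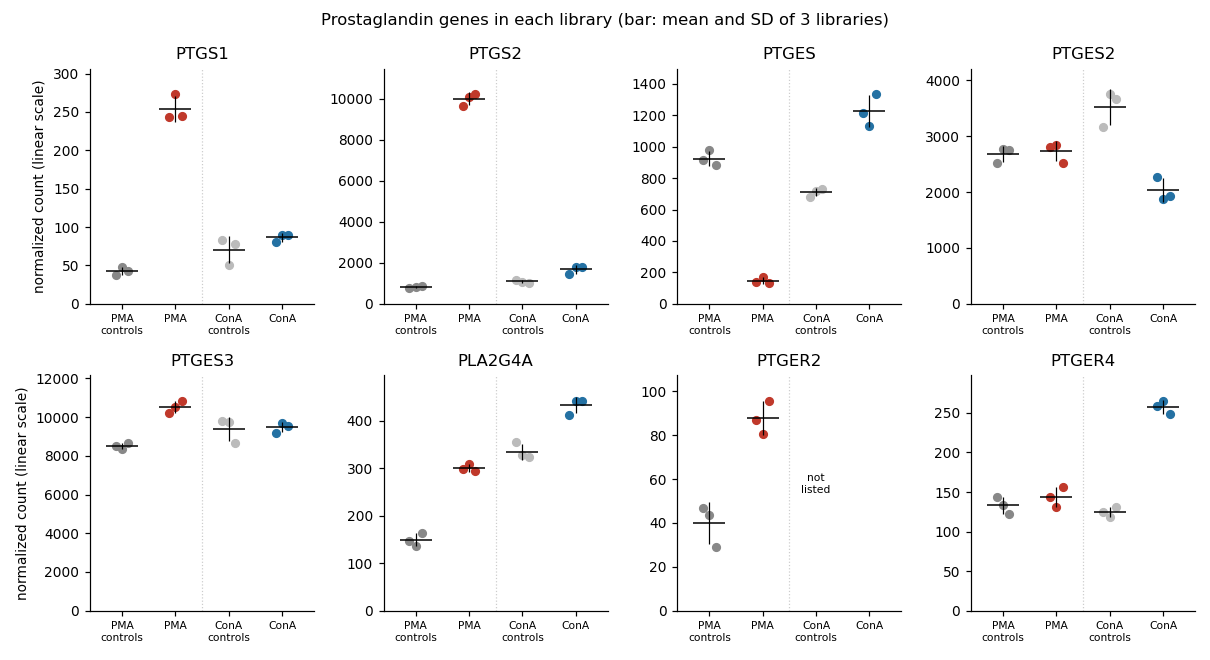
Normalized counts (vertical axis, linear, from 0) of each prostaglandin gene in all 12 libraries, with 1 point a library, a bar at the mean of 3 libraries and a line of ±1 SD. PTGS2 reached 9664 to 10245 in the PMA libraries, PTGES dropped to 129 to 171 there, and the dotted line separates the experiments, which were normalized apart.

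PTGS2, the inducible cyclooxygenase, had the largest change with PMA among the 8 genes. It was at 752, 802 and 884 normalized counts in the PMA controls and at 9664, 10111 and 10245 in the PMA libraries. Every PMA library lay far above every control. The means were 813 ± 66.3 (SD, n = 3) and 10007 ± 304 (SD, n = 3), which is 12.3-fold higher with PMA, and limma gave a log2 fold change of 3.62 (SE 0.057, adjusted p = 1.62e-12). PTGS2 was at 1161, 1083 and 1037 in the controls of the ConA experiment and at 1431, 1803 and 1819 in its treated libraries. These groups did not overlap either, but the 1.54-fold difference of the means was under the fold threshold (log2 fold change 0.62, SE 0.087, adjusted p = 2.40e-05 from limma).

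PTGS1, the other cyclooxygenase, was low in the controls and rose with PMA. Its normalized counts were 37.8, 48.3 and 43.3 in the PMA controls and 244, 274 and 244 with PMA, with no overlap. The mean went from 43.1 ± 5.25 to 254 ± 17.2 (SD, n = 3 each), 5.89-fold higher, and the log2 fold change was 2.53 (SE 0.13, adjusted p = 1.86e-08 from limma). Among the ConA controls PTGS1 stood at 83.4, 50.03 and 78.1, and the ConA libraries were at 80.1, 89.9 and 89.9. The groups overlapped, and the log2 fold change of 0.33 (adjusted p = 0.151 from limma) had a 95% interval from -0.09 to 0.74.

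Transcript levels of different genes can be compared only after division by transcript length. Per kilobase of the principal GENCODE transcript, PTGS2 stood at 180 normalized counts in the PMA controls and 2217 in the PMA libraries, and PTGS1 at 8.56 and 50.4. PTGS2 therefore made up 95.5% ± 0.499 of the summed cyclooxygenase level in the PMA controls and 97.8% ± 0.139 with PMA (SD, n = 3). Its share of 94.6% ± 1.28 in the ConA controls and of 95.6% ± 0.300 in the ConA libraries overlapped. PTGS1 thus stayed a small part of the sum although it passed the thresholds with PMA.

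The bases before the start sites of the cyclooxygenase genes are shown because these promoters belong to the genes that rose most with PMA. They are the 250 bases upstream of the RefSeq start on GRCh38.p14, 5′ to 3′ on the strand of the gene, and RefSeq gave windows for 8 of 8 genes, 11 windows in all. Capitals mark matches, on either strand, to 6 motifs. The TATA box was searched as TATAAA. The core of the cAMP response element was searched as CGTCA. For AP-1 the letters were TGANTCA, for C/EBP TTNNGNAAT and for EGR GCGNGGGCG, with N for any base, and kappa B was GGG and CC with 5 bases of any kind between them, whose matches can overlap each other. PTGS2 lies on the minus strand at chr1:186680424-186680673, and PTGS1 has a pair of windows on the plus strand at chr9:122370283-122370532 and chr9:122375052-122375301.
PTGS2 promoter: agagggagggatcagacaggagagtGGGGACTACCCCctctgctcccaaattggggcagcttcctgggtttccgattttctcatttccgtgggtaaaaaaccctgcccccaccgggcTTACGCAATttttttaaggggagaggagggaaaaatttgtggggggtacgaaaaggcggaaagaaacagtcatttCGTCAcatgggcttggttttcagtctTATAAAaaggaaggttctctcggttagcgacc
PTGS1 promoter, window 1: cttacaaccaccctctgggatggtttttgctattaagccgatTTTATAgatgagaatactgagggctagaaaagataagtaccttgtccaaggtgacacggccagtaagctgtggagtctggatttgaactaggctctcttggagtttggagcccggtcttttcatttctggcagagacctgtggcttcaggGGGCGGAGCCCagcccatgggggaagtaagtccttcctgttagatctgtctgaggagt
PTGS1 promoter, window 2: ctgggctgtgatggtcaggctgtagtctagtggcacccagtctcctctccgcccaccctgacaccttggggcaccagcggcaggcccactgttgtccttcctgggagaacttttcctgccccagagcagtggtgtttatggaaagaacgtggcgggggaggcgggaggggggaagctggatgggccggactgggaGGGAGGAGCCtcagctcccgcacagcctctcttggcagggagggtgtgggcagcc
The PTGS2 window held TATAAA 32 to 27 bases before the start, CGTCA 58 to 54 bases before it, TTACGCAAT 133 to 125 bases before it, and 3 overlapping kappa B matches from 225 to 214 bases before it. Of all 35116 windows of this length, 10.7% held the TATA letters, 21.2% the cAMP element core, 9.85% the C/EBP letters and 54.4% a kappa B match. PTGS1 window 1 held TTTATA, the TATA letters read on the other strand, 208 to 203 bases before the start, and both PTGS1 windows held kappa B letters between 58 and 46 bases before it. No window of the 8 genes held the AP-1 letters, which 6.57% of all windows held, and the C/EBP letters were found only in the PTGS2 window among these 11. A match is a description of letters and not a binding site.

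The PTGS2 transcript is also known for AU-rich elements, which are short repeats in the 3′ untranslated region that mark a transcript for rapid decay. Its principal transcript carried 22 copies of ATTTA in 2562 bases of 3′ untranslated region, and 2.26% of 14298 genes carried as many. The median gene had 2 copies, and the median length of the region was 1048 bases. PTGER4 carried 9 copies (14.5% of genes had as many), PTGES3 6, PTGER2 5, PLA2G4A 4, PTGS1 3, PTGES 1 and PTGES2 0. Copies also depend on the length of the region. Per kilobase of it PTGS2 had 8.59 copies and PLA2G4A, with 473 bases, had 8.46.

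PACERR, a long noncoding RNA gene, is the only RefSeq gene between PTGS2 and PLA2G4A on chromosome 1, and it was looked up after values had been seen. It was at 8.30, 13.4 and 7.22 normalized counts in the PMA controls and at 18.6, 19.96 and 31.1 with PMA. The ConA controls had 19.8, 7.004 and 10.02, and the ConA libraries 5.01, 12.5 and 12.6. These are few reads. PACERR and PTGS2 do not overlap in RefSeq. Counting by strand is not stated, so their reads could not be told apart if they overlap in the annotation used for counting.

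PLA2G4A, the phospholipase that frees arachidonic acid, was at 147, 137 and 164 normalized counts in the PMA controls and at 298, 309 and 293 with PMA. The groups were clear of each other, and the mean rose 2.01-fold from 149 ± 13.9 to 300.2 ± 7.96 (SD, n = 3 each). The log2 fold change of 1.01 (SE 0.096, adjusted p = 3.30e-06 from limma) lay just past the threshold of 1. It ranged from 0.95 to 1.15 over the alternatives, and leaving out control replicate 1, control replicate 2 or PMA replicate 2 took it under 1, to 0.95 at the lowest, as did a pseudocount of 10 (0.97) and median centring (0.995). The call was also lost without a variance trend, on the adjusted p (1.61e-04 from limma). For ConA, PLA2G4A was at 354, 327 and 324 in the controls and at 413, 442 and 442 in the treated libraries, again without overlap but with a log2 fold change of 0.37 (adjusted p = 0.00149 from limma).

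PTGES, the inducible synthase that usually works together with PTGS2, was lower than in every control with PMA and higher than in every control with ConA. It was at 913, 977 and 884 normalized counts in the PMA controls and at 138, 171 and 129 with PMA. All 3 PMA libraries were far below all 3 controls. The mean fell from 925 ± 48.0 to 146 ± 22.0 (SD, n = 3 each), 6.33-fold lower, with a log2 fold change of -2.66 (SE 0.10, adjusted p = 1.43e-09 from limma). The ConA controls had 683, 720.4 and 732 normalized counts of PTGES, and the ConA libraries had 1218, 1132 and 1337. Here every treated library was above every control, and the means of 712 ± 26.0 and 1229 ± 103 (SD, n = 3 each) differed 1.73-fold, which was under the fold threshold (log2 fold change 0.78, SE 0.073, adjusted p = 4.33e-07 from limma). PTGES and PTGS2 thus parted with PMA, the one lower and the other higher, while with ConA the means of both were higher and neither was called.

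The 250 bases upstream of PTGES are shown for comparison with those of PTGS2, since these genes went opposite ways with PMA. The window lies on the minus strand of GRCh38.p14 at chr9:129753043-129753292, from RefSeq, with capitals as above.
PTGES promoter: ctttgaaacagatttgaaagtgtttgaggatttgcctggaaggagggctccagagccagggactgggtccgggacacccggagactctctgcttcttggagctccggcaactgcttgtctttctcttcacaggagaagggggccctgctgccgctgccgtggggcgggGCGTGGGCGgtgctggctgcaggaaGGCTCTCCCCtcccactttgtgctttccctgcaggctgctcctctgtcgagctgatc
It held GCGTGGGCG, an EGR match, 82 to 74 bases before the start and a kappa B match read on the other strand 57 to 48 bases before it. The EGR letters were present in 8.41% of all windows, and among those of the 8 genes also in a PTGES2 window and in the PTGER2 window. Unlike the PTGS2 window, it held no TATA, cAMP element or C/EBP match, which says only that those letters are not in these 250 bases.

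PTGES2, a membrane-associated synthase usually expressed at a steady level, did not pass the test with either treatment. It was at 2519.8, 2779 and 2762 normalized counts in the PMA controls and at 2815, 2852 and 2528 with PMA, and these libraries were interleaved. The log2 fold change was 0.02 (adjusted p = 0.741 from limma), with a 95% interval from -0.10 to 0.15. In the ConA controls it was at 3159, 3761 and 3662, and in the treated libraries at 2277, 1884 and 1933. The ConA libraries were all lower, with a mean of 2031 ± 214 against 3527 ± 323 (SD, n = 3 each), and the log2 fold change of -0.80 (SE 0.080, adjusted p = 8.96e-07 from limma) fell short of the threshold on fold only.

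PTGES3, the cytosolic synthase, is better known as p23, a co-chaperone of HSP90. It was at 8522, 8346 and 8678 normalized counts in the PMA controls and at 10219.6, 10511 and 10852 with PMA. The groups did not overlap, but the difference was small, 1.24-fold (log2 fold change 0.31, SE 0.038, adjusted p = 2.86e-05 from limma). ConA libraries at 9197, 9689.5 and 9568 stood against controls at 9781, 9742 and 8689, with overlap and a log2 fold change of 0.01 (adjusted p = 0.840 from limma). PTGES3 has processed pseudogenes, and how reads shared with them were assigned is not given in the sources used here.

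Per kilobase of transcript, PTGES3 was the most abundant of the 3 synthase transcripts in all 4 groups. In the PMA experiment it made up 72.6% ± 1.11 of their sum in the controls and 81.4% ± 1.41 in the treated libraries, and in the ConA experiment 71.9% ± 2.53 and 75.9% ± 1.75 (SD, n = 3 each). The share of PTGES was 8.54% ± 0.508 in controls and 1.22% ± 0.179 in treated libraries for PMA, and 5.90% ± 0.386 and 10.6% ± 0.826 for ConA. Its libraries did not overlap in either experiment. The share of PTGES2 was 18.9% ± 0.855 and 17.4% ± 1.29 in the PMA experiment, and 22.2% ± 2.20 and 13.4% ± 1.503 in the ConA experiment. These shares describe transcripts and not enzyme activity, and they depend on the transcript length chosen for each gene.

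**Figure D2:**
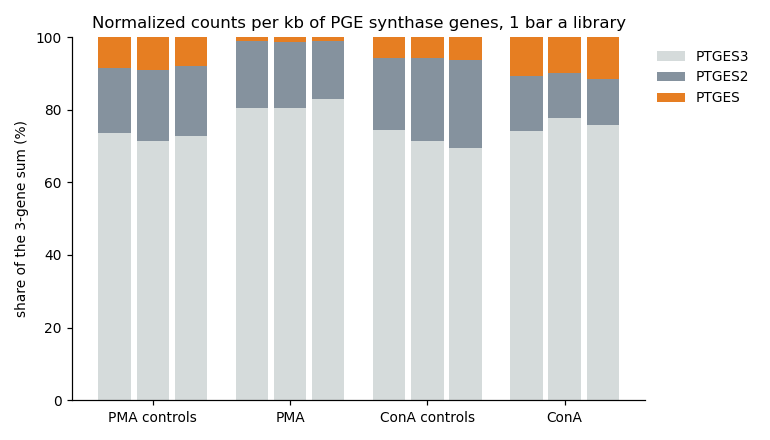
Share of PTGES, PTGES2 and PTGES3 in their summed level per kilobase (vertical axis, percent), with 1 stacked bar a library in the 4 groups. The PTGES part shrank from a mean of 8.54% to 1.22% with PMA and grew from 5.90% to 10.6% with ConA.

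Per kilobase, the receptors were lower than the synthases in every group mean. PTGER2, the EP2 receptor, was at 47.0, 43.8 and 28.9 normalized counts in the PMA controls and at 87.1, 80.8 and 95.8 with PMA. The libraries did not overlap, and the means of 39.9 ± 9.68 and 87.9 ± 7.53 (SD, n = 3 each) differed 2.20-fold, but the log2 fold change of 1.15 (SE 0.20) had an adjusted p of 4.11e-04 from limma and missed the threshold of 0.0001. Each table lists only genes with about 10 estimated reads or more in at least 1 library, and PTGER2, which was not listed with ConA, has no value there and no test of the difference between treatments.

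PTGER4, the EP4 receptor, was the only one of the genes called with ConA. It was at 125, 118 and 131 normalized counts in the ConA controls and at 259, 265 and 248 with ConA. The groups did not overlap, and the mean rose 2.06-fold from 125 ± 6.59 to 258 ± 8.86 (SD, n = 3 each), with a log2 fold change of 1.04 (SE 0.11, adjusted p = 1.05e-06 from limma). The call was lost by a small margin with a pseudocount of 10 (0.99), median centring (0.98) and quantile normalization (0.94). In the PMA experiment PTGER4 was at 144, 133 and 123 in the controls and at 144, 131 and 157 with PMA, which overlapped (log2 fold change 0.11, adjusted p = 0.428 from limma). A readthrough of the pseudogene PTGER4P2, which shares sequence with PTGER4, was listed at 7.60 to 16.8 normalized counts in the PMA experiment and 13.6 to 22.9 in the ConA experiment, well under the level of PTGER4.

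Transcripts of leukocytes, which express both receptors, were also measured. Of 7 T cell markers, a list chosen after values had been seen, 7 were listed in the PMA experiment, with summed levels of 402 to 466 in the controls and 455 to 858 with PMA. For ConA 2 of 7 were listed, with sums of 34.1 to 52.0 in the controls and 39.5 to 48.1 with ConA. General leukocyte markers were measured as well. In the ConA experiment CD68, LYZ and ITGAM were listed, and their sum was 5836 to 6255 in the controls and 17318 to 20524 with ConA. Most of that sum was CD68, a lysosomal protein of macrophages that other cells also make, at 5742, 6142 and 5890.2 in the controls and 17142, 19136 and 20414 with ConA. In the PMA experiment CD68, LYZ, ITGAM, PTPRC and CD3E were listed, with sums of 5289 to 5750 in the controls and 7569 to 7971 with PMA. PTPRC, the pan-leukocyte marker, was at 187, 177 and 176 in the PMA controls and at 168, 232 and 328 with PMA, with overlap. CD3E was at 110, 125 and 116 in the PMA controls and at 176, 199 and 233 with PMA, without overlap. PTGER2 was thus listed in the same experiment as these T cell genes. Their part in the level and the change of PTGER2 was not tested. PTGER4 rose in the ConA libraries, in which CD68 was also higher and in which PTPRC and CD3E were not listed, and the part of these markers in its change was not tested. Fewer cells of a type and less RNA per cell cannot be told apart in bulk RNA.

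Platelet markers were examined because platelets are rich in PTGS1. Of 5, 3 were listed in the PMA experiment (PF4 and GP9 were not), with sums of 38.5 to 58.7 in the controls and 75.5 to 93.2 with PMA, and 2 were listed with ConA (PF4, PPBP and GP9 were not), with sums of 32.0 to 43.8 and 37.6 to 44.9. PPBP was at 0, 4.47 and 1.81 in the PMA controls and at 61.5, 59.9 and 64.7 with PMA. It made up most of the sum with PMA and little of it in the controls. The other listed platelet markers together were lower with PMA than in the controls. The part of PPBP in the rise of PTGS1 was not tested. Of 4 mast cell markers, only KIT was listed, with 21.2 to 36.1 in the controls and 3.80 to 9.58 in the treated libraries for PMA, and 28.0 to 41.0 and 5.23 to 7.01 for ConA. For epithelial cells, 1 of 5 markers was listed in the PMA experiment (111 to 112 in the controls, 59.9 to 73.1 with PMA) and 4 of 5 in the ConA experiment (sums of 126 to 143 and 152 to 197). For endothelial cells, 3 of 4 were listed in both, without CDH5, at 94.8 to 134 and 125 to 133 with PMA and at 135 to 180.3 and 187 to 208 with ConA.

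Ranked per kilobase, the order of the genes in the PMA controls was PTGES3 (4435), PTGES2 (1153), PTGES (521), PTGS2 (180), PLA2G4A (51.9), PTGER4 (34.6), PTGER2 (16.7) and PTGS1 (8.56). With PMA, PTGS2 moved to the second place (2217) behind PTGES3 (5483), and PTGES moved down to 82.4, below PLA2G4A (104). PTGER4 (37.4 ± 3.34) and PTGER2 (36.9 ± 3.16) then did not differ beyond their spread. In the ConA experiment the order of the 7 listed genes was the same in the controls and the treated libraries, with PTGES3 highest (4898 in the controls and 4940 with ConA) and PTGS1 lowest (14.0 and 17.2).

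The difference between the treatments was tested directly, as the log2 change with PMA minus the log2 change with ConA over all 12 libraries, for the 7 genes listed in both experiments. It passed the thresholds for 3 of 7, with 2 higher and 1 lower, against 10.6% of all genes tested, 3.67% higher and 6.89% lower. With no limit on the fold and an adjusted p limit of 0.05 it passed for 7 of 7, where 61.1% of all genes passed. PTGES differed by -3.45 (95% interval -3.72 to -3.17, adjusted p = 3.12e-13 from limma), PTGS2 by 3.01 (2.77 to 3.25, adjusted p = 3.40e-13) and PTGS1 by 2.21 (1.70 to 2.72, adjusted p = 5.12e-07). The difference for PTGER4 had the opposite sign from those of the cyclooxygenases, -0.93 (-1.25 to -0.61, adjusted p = 4.06e-05 from limma), which was within the fold threshold. The differences of PTGES2 (0.82), PLA2G4A (0.64) and PTGES3 (0.29) were likewise under it. The experiments had separate controls and were normalized apart, so the agent and the experiment cannot be told apart in these differences.

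**Figure D3:**
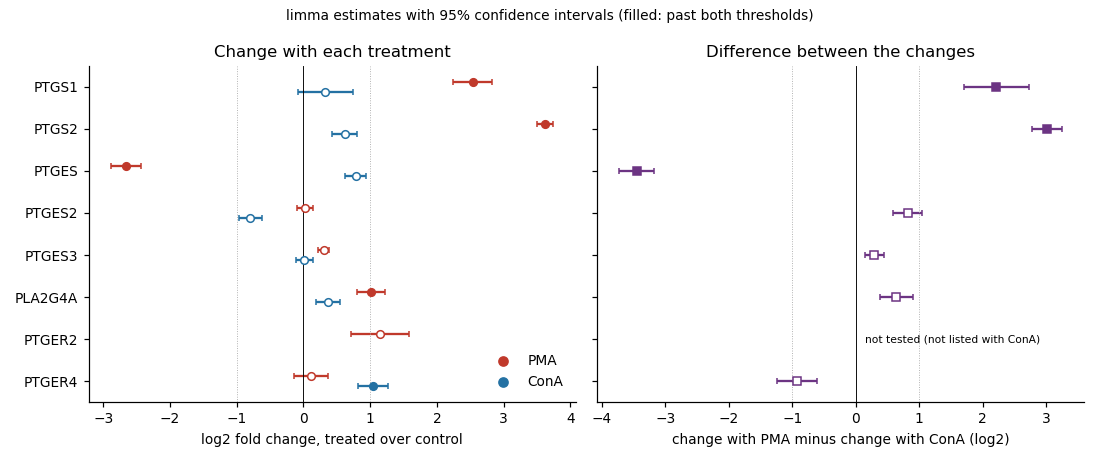
Left, log2 fold change of each gene with PMA (red) and ConA (blue). Right, change with PMA minus change with ConA (log2). Points are limma estimates with 95% intervals, filled symbols passed both thresholds, and dotted lines mark a log2 fold change of 1 in either direction. PTGES lies at -2.66 with PMA and 0.78 with ConA.

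Further genes of the pathway were counted from lists written from general knowledge. The counts of every list are to be read beside the share called over all genes tested, 8.65% with PMA and 8.71% with ConA. Of 7 further prostanoid synthase genes tested with PMA, 1 rose and 2 fell, with a median log2 fold change of 0.05, and of 6 tested with ConA 1 rose and 0 fell, with a median of -0.01. AKR1B1, an aldo-keto reductase that can make prostaglandin F, rose with both treatments, by 1.03 with PMA (adjusted p = 9.96e-09 from limma) and by 1.39 with ConA (adjusted p = 4.72e-11). Without control replicate 3 its log2 change with PMA was 0.97, and with quantile normalization 0.88. AKR1C3, another prostaglandin F synthase, fell with PMA (log2 fold change -1.20, adjusted p = 4.06e-07 from limma), and so did GSTM2 (-1.03), whose call was lost in 6 of the alternatives, among them those without control replicate 2, control replicate 3 or PMA replicate 2, with log2 fold changes between -1.03 and -0.86.

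Of the further prostanoid receptors 3 were tested. PTGIR, the prostacyclin receptor, was at 141, 124 and 138 normalized counts in the PMA controls and at 468, 471 and 454 in the PMA libraries. For ConA it was at 122, 117 and 131 in the controls and at 578, 619.8 and 694 in the treated libraries. It rose with both, by 1.78 and 2.34 on the log2 scale (adjusted p = 8.72e-09 and 1.05e-10 from limma). PTGFR, the prostaglandin F receptor, was at 467, 446 and 476 in the PMA controls and fell to 186, 172 and 195 with PMA (log2 fold change -1.33, adjusted p = 7.36e-08 from limma). With ConA it was at 348, 378 and 398 against 324, 339 and 329 in the controls, which did not pass the test. The median log2 fold change of the 3 receptors was 0.28 with PMA and 0.93 with ConA.

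Of 16 further phospholipase and arachidonate-handling genes, 1 rose and 2 fell with PMA (median log2 fold change -0.60), and 3 rose and 0 fell with ConA (median 0.02). MGLL, a lipase that frees arachidonic acid from an endocannabinoid, rose with both treatments, by 2.25 with PMA and 1.61 with ConA (adjusted p = 1.53e-10 and 1.88e-09 from limma). FADS2, a desaturase on the path to arachidonic acid, fell with PMA (log2 fold change -1.72), as did LPCAT3, which puts arachidonate into phospholipids (-1.59). PLA2G4C, another cytosolic phospholipase A2, rose with ConA by 1.91 on the log2 scale, and MBOAT1, a lysophospholipid acyltransferase, by 1.27. Of 6 genes of prostaglandin transport and breakdown, 0 passed the test with PMA, where 4 of 6 had an unadjusted p under 0.05 in limma, against 66.7% of all genes, and 1 rose with ConA, the transporter SLCO3A1 (log2 fold change 1.24). HPGD, the main prostaglandin-degrading enzyme, was tested with PMA only (0.58, adjusted p = 0.0912 from limma).

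Of 6 lipoxygenase and leukotriene genes tested, 1 rose and 1 fell with PMA (median log2 fold change -0.30), and 1 rose and 2 fell with ConA (median -0.18). ALOXE3, an epidermal lipoxygenase, rose by 3.22 with PMA and 2.17 with ConA. CYSLTR2, a leukotriene receptor, was at 42.4, 34.0 and 37.01 normalized counts in the PMA controls and at 3.48, 3.80 and 1.20 with PMA, and its log2 fold change was -3.42 with PMA (-1.90 with a pseudocount of 10) and -1.48 with ConA. Both of its calls were lost without a variance trend in limma, the call with PMA also without control replicate 1 (-3.33) or 2 (-3.49) and the call with ConA also in 1 fit of all 12 libraries and without control replicate 6 (-1.42) or ConA replicate 3 (-1.35). LTA4H, which makes leukotriene B, fell with ConA (-1.11).

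**Figure D4:**
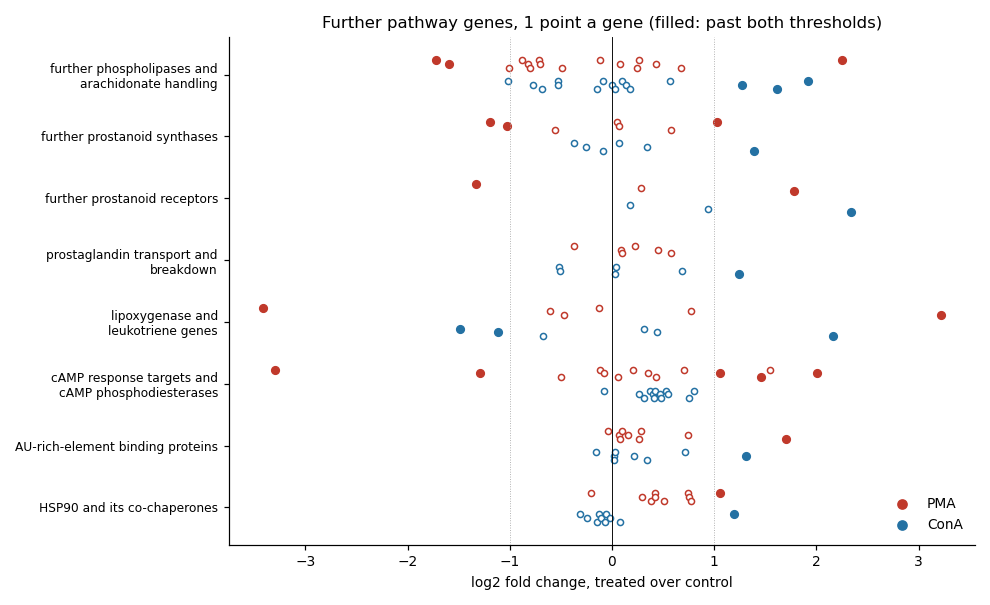
Log2 fold change (horizontal axis) of the further genes of each list with PMA (red) and ConA (blue), with 1 point a gene and filled points for genes past both thresholds. PTGIR and AKR1B1 are filled on the right for both treatments, while the cAMP list has filled points on both sides with PMA and none with ConA.

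PTGER2 and PTGER4 signal through cAMP, and 14 cAMP response targets and cAMP phosphodiesterases were tested with PMA and 13 with ConA. With PMA 3 rose and 2 fell (median log2 fold change 0.28), and with ConA 0 passed the test, where 10 of 13 had an unadjusted p under 0.05 in limma, against 68.2% of all genes (median 0.42). NR4A2, a nuclear receptor gene that cAMP induces in many cells, fell with PMA from 789, 793 and 856 normalized counts to 91.7, 93.2 and 64.7, a log2 fold change of -3.29. AREG, an EGF receptor ligand, rose with PMA by 2.01 on the log2 scale and the phosphodiesterase PDE3A by 1.46. The members that passed therefore went both ways.

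Of 9 AU-rich-element binding proteins tested with PMA, 1 rose, and of 8 with ConA, 1 rose (medians 0.16 and 0.12). ZFP36 (tristetraprolin), which promotes decay of transcripts with AU-rich elements, was at 453, 429 and 496 normalized counts in the PMA controls and at 1428, 1452 and 1610.4 with PMA (log2 fold change 1.70, adjusted p = 2.46e-09 from limma), in the same libraries in which PTGS2 was highest. The related ZFP36L2 rose with ConA (1.31). Of 10 genes of HSP90 and its co-chaperones, the partners of PTGES3 as p23, 1 rose with PMA, HSP90AA1 (log2 fold change 1.05, and 0.97 with quantile normalization), and 1 with ConA, FKBP5 (1.20). The medians of this list were 0.47 with PMA and -0.09 with ConA. With PMA 10 of 10 had an unadjusted p under 0.05 in limma, against 66.7% of all genes. With ConA it was 6 of 10, against 68.2%. FKBP5 was lower with PMA (log2 fold change -0.21), and the other genes of the list were higher. In lists as short as these, 1 call is close to the share over all genes of 8.65% with PMA and 8.71% with ConA.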

How the data were processed

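Polyadenylated RNA from 12 HT1080 libraries was sequenced by a service company. The authors deposited 1 table per experiment, whose signal values are estimated counts of each gene symbol after division by 1 factor per library (normalized counts). The submitters' processing notes name Partek, Bowtie2, STAR and DESeq2 and the builds hg19 and mm10, with no role, order or version. Of values between 5 and 60, 80.2% to 82.6% came out whole within 0.02, so read counts could not be recovered and count tests were not run.

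Treated and control libraries were compared within each table with limma 3.58.1 (R 4.3.3, eBayes with a variance trend) on log2(value + 1) for genes with a mean of at least 10, with Benjamini-Hochberg adjustment over all genes tested. The pseudocount of 1 shrinks folds of low genes. The named genes are the 8 genes, of each further list the 3 called genes with the largest change per treatment, and the 3 nearest genes to each called gene. Named outside this rule were HPGD, PACERR, the PTGER4P2 readthrough and single cell type markers, some chosen after values had been seen. The genes and lists were chosen with earlier results of these data known. Alternatives covered the pseudocount, filter, scaling, variance model, joint fit, thresholds, replicate block and each library left out. The test was checked on simulated data. One marker of the leukocyte list is not reported here. Lengths came from GENCODE transcripts, sequences from RefSeq GRCh38.p14, and Python 3.11.15 made the figures.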

Additional observations from a re-analysis of the deposited data

Results flagged for a closer look

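PMA and ConA changed 3 of the prostaglandin genes by unequal amounts in limma's test of the difference over all 12 libraries: PTGS1 by 2.21, PTGS2 by 3.01 and PTGES by -3.45 (log2, change with PMA minus change with ConA). PTGES stands out among them, because its libraries moved down with PMA and up with ConA without overlap in either experiment. The same difference passed the thresholds for 9 of the further pathway genes named above, where 10.6% of all genes tested passed. Those genes were named because they were called with a treatment, so the count follows in part from that choice and is no result about the lists. The difference was -1.20 for FADS2, -1.62 for LPCAT3, -1.67 for PLA2G4C, -1.10 for AKR1C3 and -1.51 for PTGFR. It was 1.21 for AREG, -3.21 for NR4A2, -1.24 for ZFP36L2 and -1.40 for FKBP5. Each experiment had its own controls and its own normalization, so agent and experiment cannot be told apart in any of these values.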

How the results depend on the processing

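Of 350 values of single prostaglandin genes under the alternatives, 335 kept their direction and their side of the thresholds, 9 were weaker and 6 reversed. Reversals came only from PTGES2 with PMA and PTGES3 with ConA, which were near 0 throughout: PTGES2 was -0.10 with quantile normalization and -0.0225 to 0.0780 with 1 library left out, and PTGES3 was -0.0485 with median centring and -0.0418 to 0.0435 with 1 library left out. LPCAT3 with ConA was -0.0016 with quantile normalization, -0.0363 with median centring and -0.0015 to 0.0748 with 1 library left out. The weaker values were those of PLA2G4A with PMA and PTGER4 with ConA, which lie next to the fold threshold. PTGER4, the only gene called with ConA, was not called with a pseudocount of 10, with quantile normalization or with median centring. With no fold threshold and an adjusted p limit of 0.05, 5 of 7 genes passed with ConA, against 65.3% of all genes. The difference between treatments then passed for 7 of 7 in place of 3, against 61.1% of all genes. With 1 library left out, the calls were 3 to 4 with PMA, where 1107 to 1250 of all 15153 genes tested were called. They were 1 with ConA and 3 for the difference, where 8.71% and 10.6% of all genes were called with every library kept. With the replicate number as a block, 4 genes were called with PMA, as without it, and 1264 of all 15153 genes. Correlations of deviations between same-numbered libraries were -0.0636, 0.0964 and 0.0964, which cannot show whether they were paired. The ConA groups shared no numbers. PTGER2 was called only at an adjusted p of at most 0.05, and among the 8 genes with PMA the SE was 0.20 for PTGER2 and 0.13 for PTGS1, against 0.038 to 0.12 for the others.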

Other observations

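For each prostaglandin gene called with at least 1 treatment, the 3 genes with the most similar pattern were found among 14660 genes tested in both experiments, by Euclidean distance over the 12 libraries of log2 values set against the controls of the same experiment. These are descriptions with no test. Nearest to PTGS2 were MYCT1 (distance 0.557, with log2 changes of 3.74 for PMA and 0.65 for ConA), the activin subunit gene INHBA (0.665) and the early growth response gene EGR1 (0.763). Nearest to PTGS1 were the sialyltransferase gene ST3GAL1 (0.700), the glycerol kinase gene GK (0.769) and FERMT1 (0.776).

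PTGES, low with PMA and higher with ConA, was closest to TXNIP, which encodes a thioredoxin-binding protein (distance 0.425, with log2 changes of -2.54 for PMA and 0.81 for ConA), SERPINF2 (0.466) and the proapoptotic gene BCL2L11 (0.730). Nearest to PLA2G4A were the cytokine receptor gene IL6ST (0.198), ARFGAP3 (0.201) and RAPH1 (0.245), which lie next to the fold threshold as it does. Nearest to PTGER4 were the replication origin gene ORC1 (0.259), PKD1P6-NPIPP1 (0.290) and TMPO (0.308), each with a log2 fold change near 1 with ConA (1.04, 1.00 and 1.00).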
